A study of Mus musculus with 10 samples.

Results

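The unfolded protein and amino acid stress genes are a list of 40 mouse genes in 2 branches, chosen by gene symbol and by known role. The endoplasmic reticulum (ER) branch lists 19 genes, which encode ER chaperones, disulfide isomerases, ER-associated degradation factors and the transcription factors Xbp1 and Atf6. The ATF4 branch lists 21 genes, which encode ATF4 and its partners, stress effectors, enzymes of amino acid and one-carbon synthesis, an amino acid carrier and tRNA synthetases. Of the 40 genes, 37 had a row of their own among the 18430 rows of the table (17 of the ER branch and 20 of the ATF4 branch), and where a symbol had several rows the row with the highest mean was taken. Manf appeared only in a row that joins it to another gene, and levels of Calr and Slc7a5 were not analysed here. These 37 passed the filter on low values and were tested among 12842 rows.

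RNA was sequenced from 10 cultures of NIH3T3, a line of mouse embryonic fibroblasts. Controls were 1 library of parental cells and 1 of cells that stably overexpress the vector. The other libraries came from 4 independent clones that stably overexpress FOXP2, a forkhead transcription factor, and 4 that stably overexpress FOXP2-CPED1, a rearranged form of FOXP2. Each library is 1 clone, and the 2 controls differ in kind, so the spread within the control group is that between a parental and a vector culture. The sources used here do not state the promoter that drives the constructs, their dose or how clones were picked.

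Cells meet misfolded protein in the ER with sensors that act through separate outputs: ATF6 and spliced XBP1 switch on chaperone and degradation genes, while PERK phosphorylates the initiation factor eIF2alpha and so favours translation of ATF4. ATF4 is also reached from other eIF2alpha kinases, among them GCN2, which senses uncharged tRNA, and it switches on genes for amino acid synthesis, transport and tRNA charging together with the stress genes Ddit3, Trib3 and Chac1. In secretory cells such as fibroblasts the chaperone arm serves the folding of collagen and other matrix proteins.

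The promoters of the 2 branches are set out first, because the factors of each branch are known to read different letters. RefSeq promoter windows on GRCm38.p6, running from 250 bases before to 50 bases after the start of a gene, were used for 34 of the 40 genes (36 windows, 16 of the ER branch and 20 of the ATF4 branch). Any member windows on 1 chromosome were left out, whereas the windows of all genes kept that chromosome. Hyou1, Atf6, Manf, Wars, Nars and Slc7a5 had no window here, so the shares below do not cover them. Both strands were searched for the ER stress element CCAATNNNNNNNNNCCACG, for ER stress element II, ATTGGNCCACG, for the XBP1 and ATF6 core TGACGTG and for the ATF4-C/EBP core TGATGNAA. The first and second of these share the run CCACG and a CCAAT box, read on opposite strands, and no other pair of motifs shares such a run. The ER stress element stood in 7 of 16 ER windows (43.8%), in 0 of 20 ATF4 windows and in 39 of the 32851 windows of all genes (0.119%). Element II was present in 2 ER windows (12.5%), those of Dnajb11 and Herpud1, in 0 ATF4 windows and in 0.0365% of all windows. The core TGACGTG was found in 1 ER window, that of Hspa5, in 0 ATF4 windows and in 2.01% of all windows. The ATF4-C/EBP core stood in 5 of 20 ATF4 windows (25%), those of Asns, Chac1, Gars, Nupr1 and Trib3, in 1 of 16 ER windows (6.25%), that of Herpud1, and in 3.97% of all windows. Genes and motifs were both chosen from what is known of these branches, so the shares partly follow from that choice and carry no test. A match of letters is a description of the window, and binding was not measured.

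The 250 bases before the start are printed for the chaperone gene Hspa5 and for Herpud1, whose window holds a motif of each branch, and for 3 ATF4 genes with the core, each 5′ to 3′ on the strand of the gene, with motif letters in capitals. The windows lie at chr2:34771840-34772089 (plus strand, Hspa5), chr8:94386179-94386428 (plus, Herpud1), chr6:7693210-7693459 (minus, Asns), chr2:119350992-119351241 (plus, Chac1) and chr7:126625471-126625720 (minus, Nupr1) of GRCm38.p6.
Hspa5: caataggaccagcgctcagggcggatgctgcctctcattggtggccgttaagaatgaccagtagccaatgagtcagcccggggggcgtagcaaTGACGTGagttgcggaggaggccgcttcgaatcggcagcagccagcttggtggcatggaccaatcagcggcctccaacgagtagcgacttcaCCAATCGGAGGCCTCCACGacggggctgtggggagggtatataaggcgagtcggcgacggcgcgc
Herpud1: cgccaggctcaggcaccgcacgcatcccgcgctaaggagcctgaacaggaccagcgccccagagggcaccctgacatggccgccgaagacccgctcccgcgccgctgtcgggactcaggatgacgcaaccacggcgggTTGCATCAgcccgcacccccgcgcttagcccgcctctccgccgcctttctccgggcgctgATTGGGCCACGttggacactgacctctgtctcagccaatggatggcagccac
Asns: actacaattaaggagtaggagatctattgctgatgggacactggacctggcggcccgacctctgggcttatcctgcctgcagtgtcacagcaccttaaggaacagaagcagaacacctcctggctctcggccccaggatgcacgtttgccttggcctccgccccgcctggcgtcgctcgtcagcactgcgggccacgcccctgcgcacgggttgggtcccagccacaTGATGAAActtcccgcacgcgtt
Chac1: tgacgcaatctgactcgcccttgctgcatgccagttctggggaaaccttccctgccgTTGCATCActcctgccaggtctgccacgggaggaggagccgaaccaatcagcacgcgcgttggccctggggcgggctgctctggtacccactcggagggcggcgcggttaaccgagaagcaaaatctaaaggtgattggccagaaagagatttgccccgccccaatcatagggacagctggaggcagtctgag
Nupr1: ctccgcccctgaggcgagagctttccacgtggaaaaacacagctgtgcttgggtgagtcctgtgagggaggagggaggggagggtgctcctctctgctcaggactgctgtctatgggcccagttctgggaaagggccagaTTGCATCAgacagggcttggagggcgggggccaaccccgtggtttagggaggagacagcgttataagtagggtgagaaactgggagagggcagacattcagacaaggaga
In Hspa5 the capitals mark TGACGTG, 157 to 151 bases before the start, and the ER stress element, 65 to 47 bases before it. In Herpud1 they mark the ATF4-C/EBP core on the opposite strand, 112 to 105 bases before the start, and element II, 52 to 42 bases before it. In Asns, Chac1 and Nupr1 the core lies 23 to 16, 193 to 186 and 110 to 103 bases before the start, on the opposite strand in the last 2.

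The other 6 ER windows with the ER stress element hold it 7 times, since Hsp90b1 has 2 copies, and the copies are lined up to show the spacer that differs between genes. Each is written in the direction of the motif, with the fixed letters in capitals.
Calr: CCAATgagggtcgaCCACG
Creld2: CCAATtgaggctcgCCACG
Dnajc3: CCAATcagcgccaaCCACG
Hsp90b1, far copy: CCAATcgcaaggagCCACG
Hsp90b1, near copy: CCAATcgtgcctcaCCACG
Pdia6: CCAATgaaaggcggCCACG
Syvn1: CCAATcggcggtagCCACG
They lie at chr8:84847075-84847093 (Calr), chr15:88819520-88819538 (Creld2), chr14:118937827-118937845 (Dnajc3), chr10:86705638-86705656 and chr10:86705533-86705551 (Hsp90b1), chr12:17266491-17266509 (Pdia6) and chr19:6046532-6046550 (Syvn1) of GRCm38.p6, between 212 and 26 bases before the start.

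The deposited values are RPKM, reads scaled by the length of the transcript and the size of the library, and summed to between 794682 and 944602 over the rows of a library. Relative depth, read from the smallest values and set to 1 for parental cells, ran from 0.914 to 1.32. Rows of the mitochondrial genome were at 0 in FOXP2 clones 2 and 4 and FOXP2-CPED1 clone 3 and summed to between 33213 and 41130 RPKM in the other 7 libraries. Of 11 fibroblast markers 9 had a row, all above a mean of 1 RPKM, with a sum of 6020 to 9318 RPKM. Epithelial markers summed to at most 5.19 RPKM (2 of 7 with a row), endothelial markers to at most 0.536 (1 of 6) and skeletal muscle markers to at most 3.57 (1 of 5), while none of 7 blood or 5 neuronal markers had a row. Markers were matched by their exact symbol, so a marker held in a row that joins genes counted as having no row. Lack of a row does not show that a gene was silent. The row of mouse Foxp2 read 0.0798 and 0.0785 RPKM in parental and vector cells, 0.145 to 1.02 in the FOXP2 clones and 0.0674 to 0.330 in the FOXP2-CPED1 clones. The sources used here do not state whether transcripts of the constructs were counted in that row.

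Over the whole set, the ER chaperones Hspa5 and Hyou1 and the secreted glycoprotein gene Stc2 stood above both controls in all 8 clones. These were 2 of 17 ER members (11.8%) and 1 of 20 ATF4 members (5%), where 5.44% of all rows did so. The ATF4 branch stood far apart between clones of the same construct. It was above the controls in FOXP2 clones 2 and 4 and FOXP2-CPED1 clone 4, below them in FOXP2 clone 3 and FOXP2-CPED1 clones 1 and 3, and nearer to them in the other 2. No member passed an adjusted p of 0.05 in any of the 3 comparisons (limma, Benjamini-Hochberg over 12842 rows). Over all rows, 56 passed between FOXP2 and control (0.436%), 45 between FOXP2-CPED1 and control (0.35%) and 0 between the constructs (0%). In these bulk libraries, fewer cells of a type and less RNA per cell cannot be told apart.

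**Figure D1:**
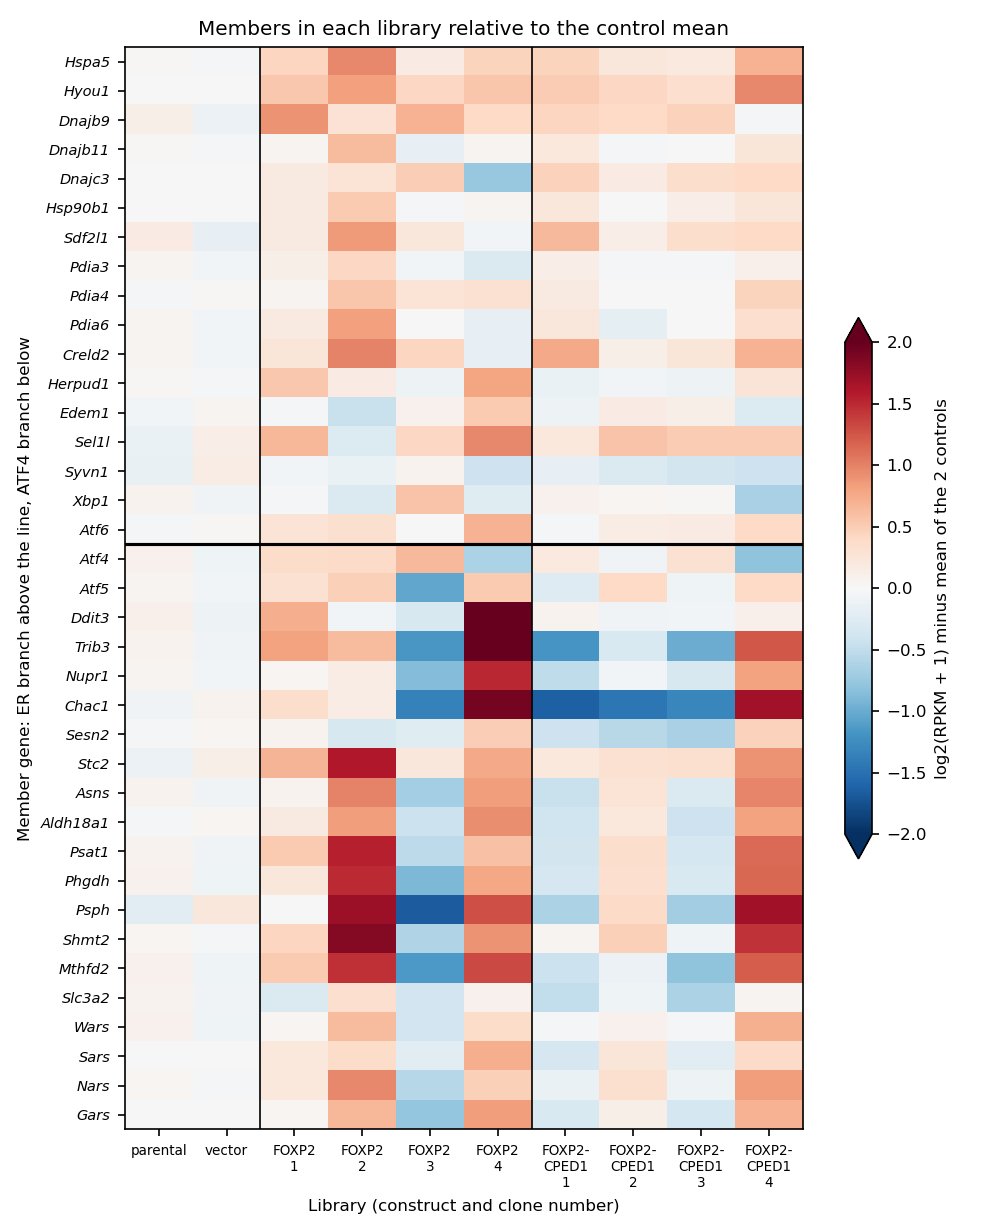
Heat map of the 37 members with a row (rows, grouped by role, ER branch above the line and ATF4 branch below) in the 10 libraries (columns). Colour gives log2(RPKM + 1) minus the mean of the 2 controls, with the scale ending at 2 in either direction; the ATF4 block is mostly red in FOXP2 clones 2 and 4 and FOXP2-CPED1 clone 4 and mostly blue in FOXP2 clone 3 and FOXP2-CPED1 clones 1 and 3.

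The chaperones of the ER come first. Values are given throughout in the order parental, vector, then clones 1 to 4 of each construct. Hspa5, which encodes BiP, the main Hsp70 of the ER and the brake on its stress sensors, read 247 and 241 RPKM in the controls, 330.2, 477, 275 and 333 in the FOXP2 clones and 332, 287, 280.5 and 394 in the FOXP2-CPED1 clones. Every clone lay above both controls, and FOXP2 clone 2 was the highest. The log2 difference from control was 0.50 ± 0.22 (SE) in the FOXP2 clones and 0.39 ± 0.22 in the FOXP2-CPED1 clones, with adjusted p of 0.556 and 0.761 (limma). Hyou1, the nucleotide exchange factor of BiP, read 23.8 and 23.9 RPKM in the controls, 35.1, 42.9, 32.1 and 35.5 in the FOXP2 clones and 34.3, 32.1, 30.3 and 47.5 in the FOXP2-CPED1 clones. Its controls differed by less than 1 RPKM and no clone came near them; FOXP2-CPED1 clone 4 and FOXP2 clone 2 were highest. It had the smallest unadjusted p among the members in both comparisons with control (0.0116 and 0.0147), at log2 differences of 0.58 ± 0.19 and 0.56 ± 0.19 and adjusted p of 0.364 and 0.473 (limma).

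Dnajb9, an ER J-protein that recruits BiP to the sensor IRE1, was measured at 3.95 and 3.21 RPKM in the controls, 7.51, 4.56, 6.38 and 5.04 in the FOXP2 clones and 5.12, 5.03, 5.32 and 3.45 in the FOXP2-CPED1 clones. All FOXP2 clones and 3 FOXP2-CPED1 clones lay above both controls, and FOXP2-CPED1 clone 4 lay between them. Its log2 difference from control was 0.57 ± 0.22 for FOXP2 (unadjusted p = 0.0254, adjusted p = 0.476, limma) and 0.31 ± 0.22 for FOXP2-CPED1 (adjusted p = 0.84). Sdf2l1, which joins BiP and ER J-proteins in a chaperone complex, stood at 35.9 and 28.6 RPKM in the controls, 36.4, 58.4, 37.8 and 30.7 in the FOXP2 clones and 50.9, 35.2, 41.4 and 42.5 in the FOXP2-CPED1 clones. FOXP2 clone 2 was highest, FOXP2 clone 4 and FOXP2-CPED1 clone 2 lay between the controls, and the other 6 clones were above both. Dnajc3, or p58IPK, a co-chaperone of the ER lumen that also inhibits PERK, read 16.2 and 15.8 RPKM in the controls, 18.2, 19.5, 22.9 and 9.11 in the FOXP2 clones and 22.3, 18.1, 20.8 and 21.4 in the FOXP2-CPED1 clones. FOXP2 clone 4 alone was below the controls, and the other 7 clones were above both, so that the FOXP2-CPED1 clones did not overlap the controls while the FOXP2 clones did.

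The abundant chaperones and disulfide isomerases were highest in FOXP2 clone 2. Hsp90b1, the ER Hsp90 (GRP94), ranged over the clones from 256 RPKM in FOXP2 clone 3 to 373 in FOXP2 clone 2, against 261 and 258 in the controls. Dnajb11, another BiP co-chaperone, ranged from 62.4 to 109 in the same 2 clones, against 71.0 and 68.6. Of the 3 disulfide isomerases with a row, Pdia6 reached 518 RPKM, Pdia3 431 and Pdia4 110.3 in FOXP2 clone 2, the highest of all libraries for each. The controls read 307 and 282 RPKM for Pdia6, 337 and 309.9 for Pdia3 and 73.5 and 75.5 for Pdia4. Over the 7 chaperones the log2 difference from control had a median of 0.30 for FOXP2 (from 0.05 to 0.58) and 0.34 for FOXP2-CPED1 (from 0.11 to 0.56). In both, 7 of 7 were above 0, where 52.3% and 50.3% of all rows were. Of the 4 degradation genes, given below, 3 were above 0 for FOXP2 and 1 for FOXP2-CPED1, at medians of 0.19 and −0.01.

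Creld2, a luminal protein with disulfide isomerase activity that ER stress induces, read 38.3 and 35.6 RPKM in the controls, 44.03, 74.7, 50.1 and 32.8 in the FOXP2 clones and 63.1, 39.96, 43.8 and 60.4 in the FOXP2-CPED1 clones. FOXP2 clone 4 was the single clone below the controls, and FOXP2 clone 2 and clones 1 and 4 of FOXP2-CPED1 were highest. The row that joins Manf, a secreted ER stress protein, to Rbm15b read 287 and 236 RPKM in the controls, 264, 481, 292 and 186 in the FOXP2 clones and 380.2, 259, 301 and 261 in the FOXP2-CPED1 clones. FOXP2 clone 2 was again highest and FOXP2 clone 4 lowest, although reads of the joined genes cannot be separated. This row did not pass the test in any comparison (log2 differences from 0.04 to 0.19, adjusted p of at least 0.938, limma).

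Of the 4 degradation genes, 3 were highest in FOXP2 clone 4 and not in clone 2. Herpud1, a membrane protein of the degradation complex, read 60.1 and 58.7 RPKM in the controls, 86.8, 66.7, 55.04 and 103 in the FOXP2 clones and 54.4, 57.02, 55.6 and 71.5 in the FOXP2-CPED1 clones. FOXP2 clones 4 and 1 were high, and 3 of 4 FOXP2-CPED1 clones and FOXP2 clone 3 were below both controls. It had the smallest p of the ER branch between the constructs, with a log2 difference of −0.35 ± 0.19 for FOXP2-CPED1 minus FOXP2 (unadjusted p = 0.0934, adjusted p = 1.00, limma). Sel1l, the scaffold of the same complex, read 30.3 and 37.01 RPKM in the controls, 53.5, 27.6, 45.01 and 66.2 in the FOXP2 clones and 38.9, 50.5, 48.03 and 48.3 in the FOXP2-CPED1 clones. Here FOXP2 clone 4 was highest, and FOXP2 clone 2, the highest library for Hspa5, Pdia6 and Creld2, was lowest. Syvn1, the ubiquitin ligase Hrd1 that Sel1l holds, read 20.1 and 25.2 RPKM in the controls, 21.7, 20.5, 23.7 and 16.6 in the FOXP2 clones and 19.97, 18.4, 17.2 and 16.6 in the FOXP2-CPED1 clones. All FOXP2-CPED1 clones lay below both controls by small steps, with a log2 difference of −0.31 ± 0.17 (adjusted p = 0.746, limma). Edem1, a lectin that passes misfolded glycoproteins to degradation, ranged from 23.2 RPKM in FOXP2 clone 2 to 46.3 in FOXP2 clone 4, against 30.6 and 33.4 in the controls.

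Of the transcription factors of the ER branch, Xbp1 read 61.6 and 55.6 RPKM in the controls, 56.96, 47.6, 87.2 and 49.5 in the FOXP2 clones and 62.4, 60, 59.3 and 36.8 in the FOXP2-CPED1 clones. It was highest in FOXP2 clone 3 and lowest in FOXP2-CPED1 clone 4. Splicing of its mRNA, which makes the active factor, is not visible in gene-level values. Atf6, a membrane-bound factor that is cut and released under ER stress, read 4.74 and 4.97 RPKM in the controls, 6.09, 6.32, 4.82 and 8.495 in the FOXP2 clones and 4.77, 5.46, 5.53 and 6.76 in the FOXP2-CPED1 clones. FOXP2 clone 4 was highest, 6 clones lay above both controls, and neither factor passed the test in a comparison (adjusted p of at least 0.736, limma).

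**Figure D2:**
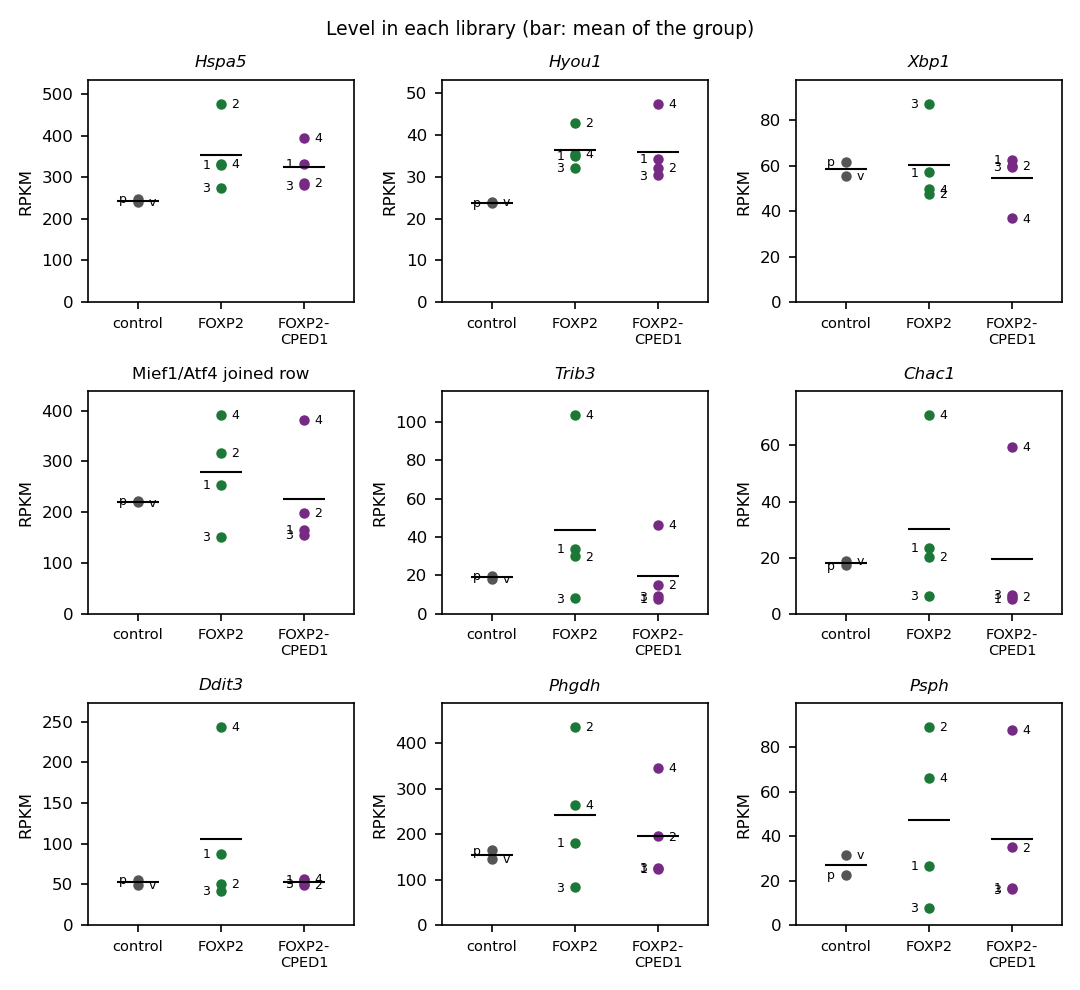
RPKM (vertical axes, each starting at 0) in each library for Hspa5, Hyou1, Xbp1, the joined row of Mief1 and Atf4, Trib3, Chac1, Ddit3, Phgdh and Psph; points are libraries (p parental, v vector, numbers the clones) and bars the mean of a group. Hyou1 lies between 30.3 and 47.5 RPKM in the clones, above controls of 23.8 and 23.9, while Chac1 spans 5.13 to 70.8 RPKM in the clones on both sides of its controls.

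The ATF4 branch showed its spread within each construct. The row named Atf4 alone was small, at 1.32 and 1.04 RPKM in the controls, 1.81, 1.85, 2.402 and 0.411 in the FOXP2 clones and 1.501, 1.07, 1.703 and 0.246 in the FOXP2-CPED1 clones. Nearly all the signal of the locus stood in a row that joins Atf4 to its neighbour Mief1, which read 222 and 219 RPKM in the controls, 254, 317, 152 and 391 in the FOXP2 clones and 164, 199, 155 and 383 in the FOXP2-CPED1 clones. FOXP2 clone 4 and FOXP2-CPED1 clone 4 were highest in the joined row and lowest in the small one, so the 2 rows ran opposite to each other. The group means of the joined row were 220.4 ± 1.79 RPKM (SD, n = 2) in controls, 278 ± 101 (n = 4) in FOXP2 clones and 225 ± 107 (n = 4) in FOXP2-CPED1 clones. Its log2 difference was 0.25 ± 0.41 (SE) and −0.07 ± 0.41 from control (adjusted p = 0.912 and 0.99, limma). Atf5, a related factor that is also controlled at translation, ranged from 70.8 RPKM in FOXP2 clone 3 to 209.6 in FOXP2 clone 4, against 152 and 139.9 in the controls.

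Ddit3, which encodes CHOP, a factor of the late response tied to cell death, read 55.9 and 48.8 RPKM in the controls, 87.5, 50.1, 41.8 and 244 in the FOXP2 clones and 54.98, 49.6, 50.1 and 56.3 in the FOXP2-CPED1 clones. FOXP2 clone 4 stood far above the controls and FOXP2 clone 1 somewhat above them, while the 4 FOXP2-CPED1 clones lay at the level of the controls. Trib3, a pseudokinase that dampens ATF4 and CHOP, read 19.8 and 18 RPKM in the controls, 33.8, 29.8, 7.89 and 104 in the FOXP2 clones and 7.81, 15.02, 8.95 and 46.1 in the FOXP2-CPED1 clones. Its 8 clones divided evenly, 4 above both controls and 4 below both, and FOXP2 clone 4 was 13.3 times as high as FOXP2-CPED1 clone 1. Nupr1, a small stress-induced chromatin regulator, read 51.1 and 47.4 RPKM in the controls, 50.8, 54.5, 26.4 and 142 in the FOXP2 clones and 34.3, 47.5, 39.1 and 86.7 in the FOXP2-CPED1 clones. FOXP2 clone 4 and FOXP2-CPED1 clone 4 were high and FOXP2 clone 3 was lowest.

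Among the stress effectors, Chac1, which degrades glutathione, read 17.2 and 18.9 RPKM in the controls, 23.3, 20.2, 6.43 and 70.8 in the FOXP2 clones and 5.13, 5.998, 6.701 and 59.6 in the FOXP2-CPED1 clones. It had the largest spread of all members over the clones (SD of 1.44 on the log2(RPKM + 1) scale), with 4 clones above both controls and 4 below both. Clone 4 of FOXP2-CPED1 stood far above the other 3 of that construct. Sesn2, a stress-induced regulator of mTORC1, read 14.1 and 15.1 RPKM in the controls, 15.3, 11.5, 12.2 and 20.9 in the FOXP2 clones and 10.7, 9.59, 8.91 and 20.5 in the FOXP2-CPED1 clones. Both clones numbered 4 were high and 5 of the other 6 lay below both controls. Stc2, a secreted glycoprotein, was low in every library, at 0.9201 and 1.26 RPKM in the controls, 2.34, 5.31, 1.43 and 2.52 in the FOXP2 clones and 1.41, 1.57, 1.61 and 2.89 in the FOXP2-CPED1 clones. All clones were above both controls and FOXP2 clone 2 was highest, with a log2 difference of 0.82 ± 0.34 for FOXP2 (unadjusted p = 0.0397, adjusted p = 0.546, limma) and 0.44 ± 0.34 for FOXP2-CPED1 (adjusted p = 0.865).

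All 5 genes of serine and one-carbon synthesis were highest in FOXP2 clone 2 and lowest in FOXP2 clone 3, and the clones between them differed in order from gene to gene. Phgdh, the first enzyme of the serine pathway, read 164 and 146 RPKM in the controls, 181, 436, 82.9 and 264 in the FOXP2 clones and 123, 195, 125 and 345 in the FOXP2-CPED1 clones. FOXP2 clone 2 was highest and FOXP2-CPED1 clone 4 next, and FOXP2 clone 3 was lowest. Psat1, the second enzyme, read 127 and 114 RPKM in the controls, 173, 353, 83.5 and 181 in the FOXP2 clones and 92.6, 154, 94.4 and 265 in the FOXP2-CPED1 clones. The order of the clones at both ends was that of Phgdh. Psph, the last enzyme, read 22.5 and 31.5 RPKM in the controls, 26.5, 89.2, 7.7 and 66.4 in the FOXP2 clones and 16.8, 34.9, 16.02 and 87.9 in the FOXP2-CPED1 clones, and its highest clone was 11.6 times its lowest. The controls of Psph were the least alike of the members, at a log2 difference of 0.46 between vector and parental.

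Shmt2, the mitochondrial enzyme that moves a carbon unit from serine to folate, read 31.98 and 30.1 RPKM in the controls, 42.4, 113, 20.02 and 59.02 in the FOXP2 clones and 32.3, 43.4, 29.1 and 86.1 in the FOXP2-CPED1 clones. Mthfd2, the next mitochondrial step of that route, read 38.1 and 33.6 RPKM in the controls, 51.7, 101, 15.6 and 90.3 in the FOXP2 clones and 26.3, 32.7, 20.1 and 83.95 in the FOXP2-CPED1 clones. In both genes FOXP2 clone 2 was highest and FOXP2 clone 3 lowest. The median of the 5 enzymes against the control mean was 0.44, 1.55, −0.89 and 0.91 (log2) in FOXP2 clones 1 to 4 and −0.37, 0.35, −0.34 and 1.21 in FOXP2-CPED1 clones 1 to 4. Clones 2 and 3 of FOXP2 carry the same construct and were the highest and lowest. The gap between them was larger than any difference between group means in these 5 enzymes. Single libraries spread more than group means do, so the measures are not alike.

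Asns, asparagine synthetase, read 110.2 and 100.2 RPKM in the controls, 110.2, 209.8, 65.3 and 189 in the FOXP2 clones and 77.01, 127, 85.7 and 207 in the FOXP2-CPED1 clones. Both clones numbered 4 and FOXP2 clone 2 were high, and FOXP2 clone 3 was lowest. Aldh18a1, the first enzyme of proline synthesis, ranged from 25.7 RPKM in FOXP2 clone 3 to 67.4 in FOXP2 clone 4, against 34.0 and 35.6 in the controls. Slc3a2, the heavy chain of amino acid carriers, read 196 and 177 RPKM in the controls, 152, 236, 142 and 197 in the FOXP2 clones and 132, 175, 119 and 194 in the FOXP2-CPED1 clones. It ranged least in the branch, and its log2 difference from control was −0.29 ± 0.25 in FOXP2-CPED1 clones (adjusted p = 0.872, limma). The 4 tRNA synthetases Wars, Sars, Nars and Gars, which load tryptophan, serine, asparagine and glycine, spanned 2.19, 2.09, 2.92 and 3.08 times between the lowest and highest clone. FOXP2 clone 3 was lowest for Wars, Nars and Gars, and FOXP2-CPED1 clone 1 for Sars.

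**Figure D3:**
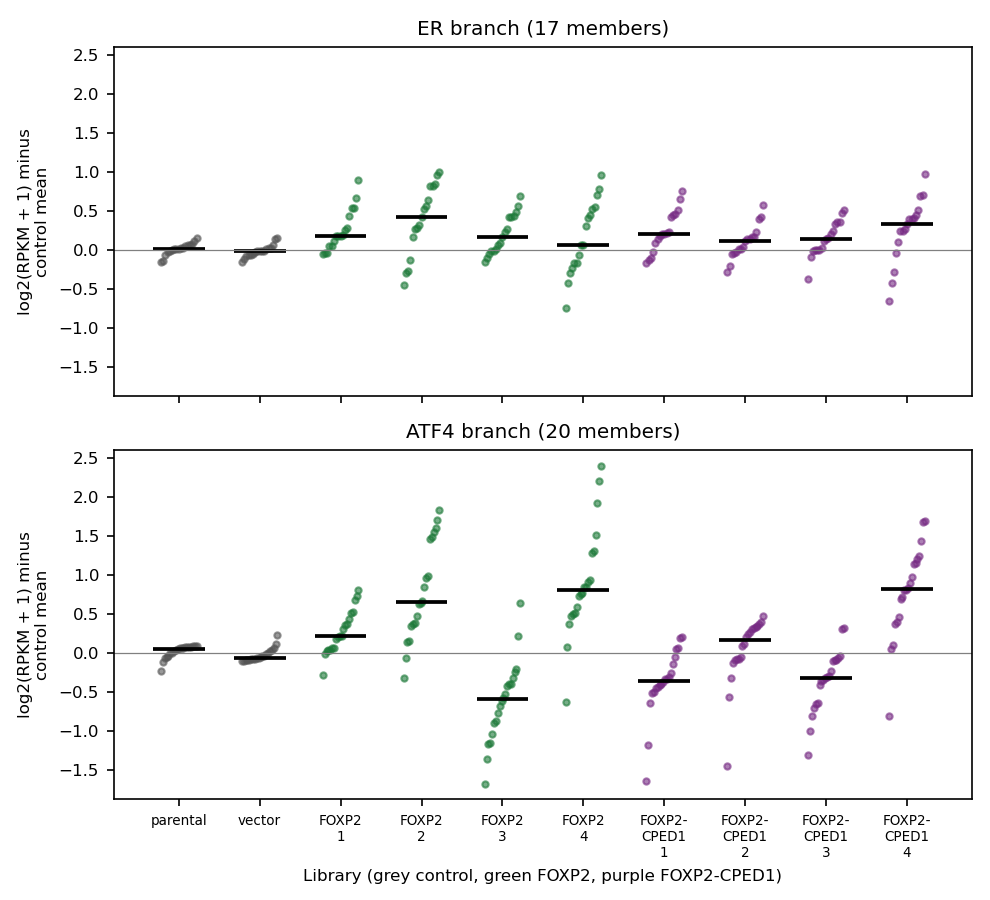
Each point is a member with a row, at its log2(RPKM + 1) minus the control mean (vertical axis) in each library (horizontal axis), with the ER branch (17 members) above and the ATF4 branch (20) below; bars are medians, grey marks controls, green FOXP2 and purple FOXP2-CPED1. The ER medians of the clones lie between 0.06 and 0.41, and the ATF4 medians between −0.59 and 0.82.

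Set against each other clone by clone, the ER branch lay slightly above the controls in every clone while the ATF4 branch lay on both sides. The ER median (log2 minus control mean) was 0.18, 0.41, 0.17 and 0.06 in FOXP2 clones 1 to 4 and 0.21, 0.11, 0.14 and 0.34 in FOXP2-CPED1 clones 1 to 4. That of the ATF4 branch was 0.22, 0.65, −0.59 and 0.80 in the FOXP2 clones and −0.35, 0.17, −0.32 and 0.82 in the FOXP2-CPED1 clones. The median over all rows stayed between −0.0083 and 0.0113. Within each construct the ATF4 median was therefore above 0 in some clones and below it in others, and the highest clone of each construct stood at 0.80 and 0.82. The ATF4 minus ER gap ran from −0.76 in FOXP2 clone 3 to 0.74 in FOXP2 clone 4. In FOXP2 clone 4 it paired the second-highest ATF4 median with the lowest ER median, whereas FOXP2 clone 2 and FOXP2-CPED1 clone 4 were high in both. As group means of the clone medians, the ER branch had 0.207 ± 0.149 (SD, n = 4) for FOXP2 and 0.1998 ± 0.1003 for FOXP2-CPED1, and the ATF4 branch 0.271 ± 0.626 and 0.0805 ± 0.548.

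By counts, 16, 18, 2 and 19 of 20 ATF4 members lay above both controls in FOXP2 clones 1 to 4, and 3, 12, 2 and 18 in FOXP2-CPED1 clones 1 to 4. Below both controls were 18 in FOXP2 clone 3, 15 in FOXP2-CPED1 clone 1 and 16 in FOXP2-CPED1 clone 3, where 43.1%, 41.4% and 41% of all rows lay below both. For the ER branch 9 to 14 of 17 lay above both controls in each clone. Over all rows, 39.3% to 45.1% lay above both controls in a clone. In all 8 clones together, 2 of 17 ER members (11.8%), 1 of 20 ATF4 members (5%) and 5.44% of all rows were above both. Between the controls the median log2 difference (vector minus parental) was −0.03 in the ER branch, −0.12 in the ATF4 branch and −0.01 over all rows. Differences of opposite sign cancel in such a median. Single members differed by up to 0.32 in the ER branch (Sdf2l1, lower in vector) and 0.46 in the ATF4 branch (Psph, higher in vector).

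The SD of log2(RPKM + 1) over the 8 clones had a median of 0.627 in the ATF4 branch, 0.275 in the ER branch and 0.276 over all rows. A share of 8.48% of all rows, and 5.82% of the 7005 rows with a mean of 10 to 300 RPKM, reached the ATF4 median. Chac1 (1.44), Trib3 (1.30), Psph (1.24), Mthfd2 (1.02) and Ddit3 (0.82) varied most in the ATF4 branch, and Dnajc3 (0.40), Creld2 (0.38), Sel1l (0.36), Xbp1 (0.35) and Herpud1 (0.34) in the ER branch.

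Members of the ATF4 branch varied together. Pearson's r over the 8 clones, with each construct centred on its own mean, had a median of 0.83 over the 190 pairs within the ATF4 branch, 0.10 over the 136 pairs within the ER branch and 0.22 over the 340 pairs across branches. Over all pairs of rows the median was 0.0012. A share of 68.4% of ATF4 pairs exceeded 0.7, as did 22.8% of ER pairs and 18.8% of pairs across branches, against 9.8% of all pairs. These values describe 8 libraries whose depth and composition all genes share, and carry no test. Of the ER branch, Atf6 (mean r of 0.70 with the ATF4 members), Hyou1 (0.63), Hspa5 (0.61) and Herpud1 (0.59) ran with the ATF4 members, and Xbp1 (−0.78), Dnajb9 (−0.62) and Syvn1 (−0.60) ran opposite. In the ATF4 branch Ddit3 ran least closely with the others (0.36) apart from the small Atf4 row (−0.73).

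The high clones differed in which ATF4 genes led. In FOXP2 clone 4 the signalling genes stood highest, with a median of 1.51 (log2 minus control mean) over Atf4, Atf5, Ddit3, Trib3 and Nupr1 against 0.91 for the serine and one-carbon enzymes. In FOXP2 clone 2 the order was the other way, at 0.39 and 1.55, as it was in clone 4 of FOXP2-CPED1, at 0.40 and 1.21. With the joined row of Mief1 and Atf4 in place of the small Atf4 row, an alternative chosen after seeing the data, the signalling medians were 1.51 in FOXP2 clone 4, 0.48 in FOXP2 clone 2 and 0.79 in clone 4 of FOXP2-CPED1, and the order against the enzymes was as before in each of them. The effectors Chac1, Sesn2 and Stc2 had medians of 0.16, 0.76 and 0.90 in these 3 clones, taken as FOXP2 clone 2, FOXP2 clone 4 and clone 4 of FOXP2-CPED1. The ER chaperones had medians of 0.64, 0.06 and 0.40 in the same order.

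Technical measures of the libraries moved partly with these levels. Relative depth was 1.10 and 1.19 in FOXP2 clones 2 and 4 and 1.32 in clone 4 of FOXP2-CPED1, where the ATF4 branch was high. It was 1.01 in FOXP2 clone 3 and 0.923 and 1.18 in clones 1 and 3 of FOXP2-CPED1, where it was low. Mitochondrial rows were at 0 in 2 clones with a high ATF4 branch (FOXP2 clones 2 and 4) and in 1 with a low one (FOXP2-CPED1 clone 3). The ATF4 median was as high in FOXP2-CPED1 clone 4 (0.82), whose mitochondrial rows summed to 33213 RPKM, as in FOXP2 clone 4. The part of depth and of the missing mitochondrial rows in the spread was not tested.

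**Figure D4:**
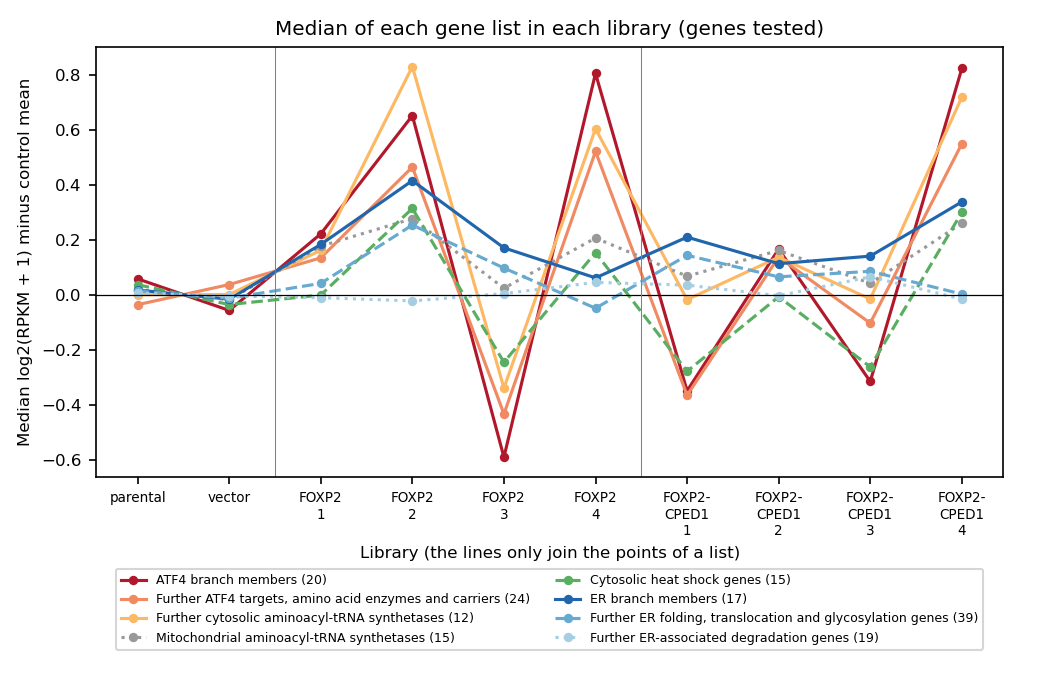
Median log2(RPKM + 1) minus the control mean (vertical axis) of each gene list in each library (horizontal axis), with the number of genes tested in brackets; lines join the points of a list. The lists of ATF4 targets and cytosolic tRNA synthetases that hold no member rise and dip in the same clones as the ATF4 members, while further ER-associated degradation genes stay between −0.02 and 0.06. Cytosolic heat shock genes and mitochondrial tRNA synthetases are also highest in FOXP2 clones 2 and 4 and clone 4 of FOXP2-CPED1.

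Lists of other genes of these pathways, none of them members, were read beside the set. The 24 tested of 30 further ATF4 targets, amino acid enzymes and carriers had medians of 0.13, 0.46, −0.43 and 0.52 in FOXP2 clones 1 to 4 and −0.37, 0.14, −0.10 and 0.55 in FOXP2-CPED1 clones 1 to 4. Further cytosolic tRNA synthetases (12 tested of 16) had 0.16, 0.83, −0.34 and 0.60, then −0.02, 0.14, −0.02 and 0.72. Both lists were highest in the 3 clones in which the ATF4 members were highest. Mitochondrial tRNA synthetases (15 tested of 17) stayed between 0.02 and 0.28 in the clones, and mitochondrial stress chaperones and proteases (8 of 10) between −0.12 and 0.67, the highest in FOXP2 clone 2. Cytosolic heat shock genes (15 of 17) had 0.00, 0.31, −0.25 and 0.15, then −0.28, −0.01, −0.26 and 0.30. These heat shock genes and both mitochondrial lists were also highest in FOXP2 clones 2 and 4 and clone 4 of FOXP2-CPED1. Medians there were 0.28, 0.21 and 0.26 for mitochondrial tRNA synthetases and 0.67, 0.18 and 0.34 for mitochondrial chaperones and proteases. The pattern was thus not particular to ATF4 targets and cytosolic tRNA synthetases. Further ER folding, translocation and glycosylation genes (39 of 40) stayed between −0.05 and 0.25, and stress sensors and their regulators (20 of 21) between −0.19 and 0.10.

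No gene of these lists passed the test in either direction in any comparison. The 2 with the smallest p in each list are named. Hspa13, an ER Hsp70, read 8.47 ± 0.402 RPKM (SD, n = 2) in controls, 12.7 ± 0.889 (n = 4) in FOXP2 clones and 11.96 ± 1.21 (n = 4) in FOXP2-CPED1 clones, with no overlap (adjusted p = 0.204 and 0.381, limma). Of all rows, 9.13% lay above the controls without overlap in FOXP2 clones and 12.2% in FOXP2-CPED1 clones. Prdx4, an ER peroxiredoxin, was at 167 ± 13.0 and 166 ± 12.3 RPKM in controls and FOXP2 clones and at 126 ± 15.7 in FOXP2-CPED1 clones, with an adjusted p of 1.00 between the constructs. Slc38a2, an amino acid carrier (SNAT2), stood at 77.9 ± 4.58, 118 ± 24.2 and 123 ± 17.3 RPKM in the 3 groups. It lay above both controls in all clones, as did 5.44% of all rows, with adjusted p of 0.38 and 0.381 (limma). Slc7a3, another carrier, stood at 1.92 ± 0.12, 2.28 ± 0.97 and 1.43 ± 0.24 RPKM. Eif2ak2, the eIF2alpha kinase PKR, stood at 7.76 ± 0.121, 13.1 ± 3.07 and 11.6 ± 1.19 RPKM, and Creb3, an ER-bound transcription factor, at 25.4 ± 1.32, 17.95 ± 1.65 and 18.7 ± 2.13 RPKM (adjusted p from 0.323 to 0.578 against control). Bag3, a co-chaperone of cytosolic Hsp70, stood at 59.0 ± 1.41, 41.7 ± 5.43 and 45.6 ± 3.02 RPKM, and Dnajb1, another, at 47.6 ± 2.10, 37.6 ± 2.49 and 35.5 ± 8.81 RPKM (adjusted p from 0.283 to 0.708 against control). The degradation genes Edem3 and Ubxn4, the tRNA synthetases Dars, Vars, Lars2 and Cars2 and the mitochondrial chaperones Hspd1 and Hspa9 had adjusted p of at least 0.359.

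The 3 comparisons between groups follow from the same values. The mean log2 difference between the FOXP2 clones and the controls was above 0 in 16 of 17 ER members and 19 of 20 ATF4 members, with a median log2 difference of 0.30 and 0.29, against 52.3% of all rows and a median of 0.02. Of these, 0 passed the adjusted threshold. At an unadjusted p under 0.05, 3 ER members (Hyou1, Dnajb9 and Hspa5) and 1 ATF4 member (Stc2) were higher and 0 lower, where 3.44% of all rows were higher and 5.08% lower. Those 4 and Pdia4 were the members whose FOXP2 clones did not overlap the controls, 4 of 17 and 1 of 20, all above them, where 9.13% of all rows lay above and 10.4% below. The smallest p in the ATF4 branch after Stc2 belonged to Ddit3 (0.64 ± 0.55, adjusted p = 0.817) and Shmt2 (0.64 ± 0.59, adjusted p = 0.83, limma). The ATF4 median was 0.16, 0.64 and 0.12 when FOXP2 clone 2, 3 or 4 was left out in turn, and −0.18 without the 3 libraries with mitochondrial rows at 0. The ER median was 0.17 when FOXP2 clone 2 was left out and 0.18 when the vector library was. When limma weighted each library by its quality, the ER median was 0.17 and 6 members passed (Hspa5, Hyou1, Herpud1, Dnajb9, Sel1l and Stc2, all higher), and of all rows 2095 (16.3%) in either direction.

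Between the FOXP2-CPED1 clones and the controls the mean log2 difference was above 0 in 13 of 17 ER and 13 of 20 ATF4 members, at medians of 0.16 and 0.05, against 50.3% of all rows and a median of 0.0016. None passed the adjusted threshold. At an unadjusted p under 0.05, Hyou1 alone was higher and 0 were lower, where 2.67% of all rows were higher and 4.61% lower. In the ER branch Hspa5, Hyou1, Dnajc3, Hsp90b1, Creld2 and Sel1l lay above both controls in all 4 clones and Syvn1 below, with Stc2 above in the ATF4 branch, where 12.2% of all rows were above and 13.3% below. With clones 1, 2, 3 and 4 of FOXP2-CPED1 left out in turn, the ATF4 median was 0.18, 0.01, 0.19 and −0.14, and the ER median was 0.09 without the last of these. With library weights the ATF4 median was −0.11 and 1 member passed, Hyou1, and of all rows 929 (7.23%).

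Between the constructs, 5 of 17 ER and 2 of 20 ATF4 members were higher in FOXP2-CPED1 than in FOXP2 clones, at medians of −0.05 and −0.24, against 47.1% of all rows and a median of −0.01. No member passed, no member had an unadjusted p under 0.05 (1.05% of all rows were higher and 1.11% lower at that level), and none separated the 8 clones by construct (0.576% higher and 0.802% lower of all rows). The smallest p in the ATF4 branch were those of Ddit3 (−0.63 ± 0.45), Trib3 (−0.98 ± 0.71) and Stc2 (−0.38 ± 0.28), each with an adjusted p of 1.00 (limma). Without the 3 libraries with mitochondrial rows at 0, which leaves 2 FOXP2 and 3 FOXP2-CPED1 clones, the ATF4 median was 0.40, the opposite sign. It was −0.11, −0.58 and −0.11 when FOXP2 clone 2, 3 or 4 was left out in turn, and −0.15, −0.14 and −0.50 when clone 1, 3 or 4 of FOXP2-CPED1 was. The ER median was then 0.04, −0.10 and −0.11 for the FOXP2 clones, and −0.03 and −0.09 when clone 2 or 4 of FOXP2-CPED1 was left out. The comparisons with control share their 2 control libraries.

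**Figure D5:**
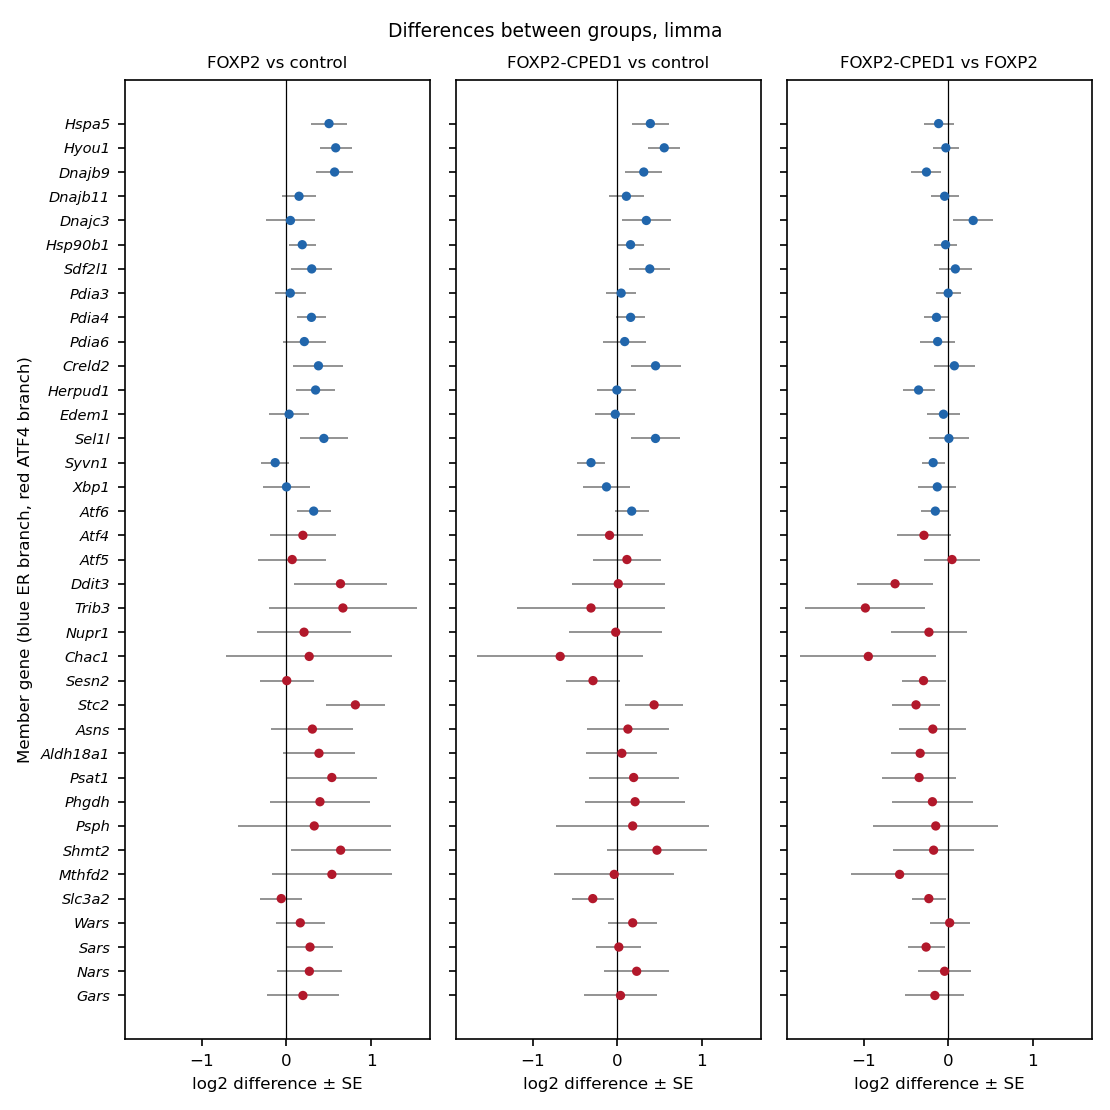
Log2 difference (horizontal axis) with its standard error (bars) for each member (rows, ER branch in blue and ATF4 branch in red) in the 3 comparisons, from limma on log2(RPKM + 1). Standard errors are wide for ATF4 members such as Chac1, at −0.68 ± 0.98 for FOXP2-CPED1 against control, and narrow for ER members such as Hyou1, at 0.58 ± 0.19 for FOXP2 against control.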

How the data were processed

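NIH3T3 RNA from 10 libraries was sequenced by the submitters. HISAT2, StringTie and the mouse build mm9 are named, with no role or version, in the submitters' processing notes. The authors deposited 1 table of RPKM values, a unit taken from its deposited name, so read counts and absolute depth are unknown and each value is relative to the rest of its library. Relative depth was read from values under 0.3 RPKM. Counting is not stated to use strand, and rows that join overlapping genes (987) cannot be split. The 3581 rows naming no gene held 3.37% to 4.54% of the summed RPKM and were left out of tests.

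Values were analysed as log2(RPKM + 1), which understates changes of low genes, over the 12842 named rows with at least 1 RPKM in 2 or more libraries. limma 3.58.1 (R 4.3.3) fitted 3 groups with a mean-variance trend, and p-values were Benjamini-Hochberg adjusted at 0.05. The fit was tested on simulated data with the row means and spread of these libraries. Changes were put into rows drawn from all those above a set level. Stc2, Dnajb9, Atf6 and the small Atf4 row lay below that level. In both comparisons with control the fit recovered 42% of simulated log2 changes of 1. Recovery was not read for members alone, and the ATF4 branch spread more over the clones (median SD of 0.627) than all rows did (0.276). Of changes of 2 the fit recovered 90% for FOXP2 and 94% for FOXP2-CPED1. The largest member difference from control was 0.82 (Stc2, FOXP2), so changes of the size seen in members would often be missed. Medians of lists are descriptions. Members and lists were chosen with earlier results of these data known. Named are all members, with the value in every library for 18 fixed by role, the 3 with the smallest p in each branch and comparison and the 5 with the largest spread over clones, and the 2 with the smallest p of each further list. Motifs were searched with Python 3.11.15 in RefSeq promoters. Alternatives were 2 pseudocounts, 2 filters, 2 scalings, no trend, library weights, other rows, fewer libraries and a replicate block.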

Additional observations from a re-analysis of the deposited data

Results flagged for a closer look

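In groups of 4 clones, 5 of the 74 member and construct pairs had a clone set apart from the other 3 by more than Dixon's limit, and chance alone flags about 1 in 20 (0.05). In FOXP2-CPED1 clone 4, Chac1 read 59.6 RPKM against 5.13 to 6.70 in the other 3 clones of that construct, and Stc2 read 2.89 RPKM against 1.41 to 1.61. In the same clone Xbp1 read 36.8 RPKM against 59.3 to 62.4, and Dnajb9 3.45 RPKM against 5.03 to 5.32. In FOXP2 clone 3, Atf5 read 70.8 RPKM against 181 to 209.6 in the other 3 FOXP2 clones.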

How the results depend on the processing

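With library quality weights, 6 members passed between FOXP2 and control and 1 between FOXP2-CPED1 and control, where 0 passed in the fit as reported and 16.3% and 7.23% of all rows passed with the weights; the cause was not tested. The ATF4 median between the constructs was −0.24 in that fit and 0.40 without the 3 libraries with mitochondrial rows at 0; the cause was not tested. Leaving out 1 library at a time, 0 members passed in any comparison; with a control left out, the single control is assumed to vary like the other groups. The ER median then ran from 0.17 to 0.30 for FOXP2 against control, from 0.09 to 0.21 for FOXP2-CPED1 against control and from −0.11 to 0.04 between the constructs. The ATF4 median ran from 0.12 to 0.64, from −0.14 to 0.19 and from −0.58 to −0.11. With the clone number as a replicate block, which was fitted over the 8 clones, 0 members passed between the constructs and the ATF4 median stayed at −0.24. Correlations of the deviations of clones of equal number were −0.04, −0.24, 0.28 and 0.17. Of the FOXP2 clones, clone 4 alone correlated best with the FOXP2-CPED1 clone of its own number. Single members, none of them past the threshold in the fit as reported, changed sign in 46 of 846, 42 of 846 and 77 of 883 alternative values in the 3 comparisons. Leaving out the small Atf4 row, or using the joined rows of Manf and Atf4, were chosen after seeing the data and changed no count of members that passed. Under the 6 alternatives run for it (2 pseudocounts, 2 scalings, the small Atf4 row left out or replaced by the joined row), the ATF4 median of each clone kept its sign, for example between 0.76 and 0.84 in FOXP2-CPED1 clone 4 and between −0.61 and −0.53 in FOXP2 clone 3. The 2 control libraries, the unknown read depth and rows that join genes limit these values.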
